A study of Homo sapiens with 8 samples.

Results

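Aminoacyl-tRNA synthetases attach each amino acid to its tRNA and so supply every substrate that the ribosome decodes. Most human synthetases are encoded by separate genes for the cytosol and for mitochondria. Some cytosolic enzymes are held in a multi-synthetase complex by the scaffold proteins AIMP1, AIMP2 and EEF1E1. Many cytosolic synthetase genes are known targets of ATF4, the transcription factor of the integrated stress response. WARS, the cytosolic tryptophan enzyme, is known as an interferon-induced gene.

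The synthetase genes were taken by their symbols from a translation table of 11244 genes, which gave 38 genes, 21 cytosolic and 17 mitochondrial (symbols ending in 2). The table holds the older symbols, such as AARS for AARS1, and these are used here. Ribosome profiling had been performed on METTL5-intact (METTL5-WT, below WT) and METTL5-knockout (METTL5-KO, below KO) cells labelled HepG2, a human liver cancer line. METTL5 is the methyltransferase that places N6-methyladenosine on 18S rRNA, and knockout cells carried a CRISPR-Cas9 deletion that the labels place at exons 2 to 3 and the study's methods, for HepG2, at exons 3 to 4. Cells of both genotypes received 100 µg/mL cycloheximide for 7 min. Each of 2 lysates per genotype gave an input RNA library and, after micrococcal nuclease digestion, a library of ribosome-protected fragments (RPF), hence 8 libraries. The study describes its HepG2 lines of both genotypes as grown from single clones. It is not stated from which line a replicate came, so clones and genotypes cannot be told apart. The labels do not say that the lysates came from independent cultures, so p-values may measure a partly technical spread.

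Input libraries totalled 10710226 to 15307257 counts. RPF libraries held 3970779 and 4592443 reads in WT and 8626705 and 9255921 in KO, so counting error was larger in the WT RPF libraries. METTL5 had 490 and 542 input counts in WT and 208 and 151 in KO, a log2 fold change of -1.86 ± 0.18 (SE). The label HepG2 was not borne out by defining liver markers. Of ALB, AFP, APOA1, APOA2, TTR, FGB, TF and SERPINA1, 4 to 7 were at 0 counts in each input library, and their sum was 1 to 14 counts. The fibroblast gene COL1A1 had 429 to 937 counts, GFAP 1 to 11, and PTPRC and KRT5 at most 1. The cells are therefore called by genotype below.

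Promoter sequence is shown first for the synthetases whose 300-base window around a start site (250 bases before to 50 after) held the C/EBP-ATF composite core, since this element is the usual site of ATF4 on amino acid response genes. RefSeq windows on GRCh38.p14 were held for 30 of the 38 genes. AARS2, DARS, LARS, TARSL2, VARS, VARS2 and YARS were among those without a window. The core was searched as TGATGNAA on both strands and was found in 8 of the 30 genes, against 4.457% of all genes with a window. Capitals mark the core, and each run is written 5′ to 3′ on the strand named.

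AARS, chr16:70289676-70289703, plus strand: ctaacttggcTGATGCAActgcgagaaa
CARS, chr11:3057408-3057435, plus strand: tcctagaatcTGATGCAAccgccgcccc
IARS, chr9:92293693-92293720, plus strand: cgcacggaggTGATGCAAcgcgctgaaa
MARS, chr12:57488054-57488081, minus strand: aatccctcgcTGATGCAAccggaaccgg
NARS, chr18:57621805-57621832, minus strand: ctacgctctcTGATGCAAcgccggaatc
TARS, chr5:33440957-33440984, minus strand: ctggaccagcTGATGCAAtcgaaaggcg

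GARS held the variant TGATGAAA and YARS2, the only mitochondrial gene with a match, TGATGGAA. In CARS, GARS, IARS, MARS, NARS and TARS the first base of the core lay within 33 bases of an annotated start site. A match describes letters in the window and not binding, which was not measured.

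An interferon-stimulated response element was searched on both strands as GAAA, any 2 bases and GAAA again. It was found in WARS and EARS2 among the 30 genes, against 4.376% of all genes with a window. The WARS run, with the match in capitals, lay 55 bases upstream of a start site.

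WARS, chr14:100375383-100375412, minus strand: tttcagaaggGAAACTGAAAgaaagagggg

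A second interferon element, the GAS motif, was searched as TTCNNNGAA, which reads the same on both strands. It was found in CARS, PARS2, TARS, WARS and WARS2, against 9.376% of all genes with a window. No match of a motif overlapped a match of another.

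Levels between genes were compared per kilobase, as normalized input reads per kb of the canonical transcript and normalized RPF reads per kb of coding sequence, where normalized reads are read counts scaled by 1 size factor per library. In WT the cytosolic enzymes had a median input level of 423 and a median RPF level of 897 per kb, and the mitochondrial enzymes 124 and 210. The input level was highest for TARS, the threonine enzyme, at 1334 ± 76.6 per kb (SD, n = 2). WARS followed at 918 ± 9.18, GARS at 899.9 ± 13.4 and KARS at 896 ± 9.76, and GARS and KARS differed by less than their SDs. The RPF level was highest for NARS, the asparagine enzyme, at 2713 ± 359 per kb, followed by FARSA at 2304 ± 161 and KARS at 2242 ± 53.6, and FARSA and KARS differed by less than the SD of FARSA. CARS2, at 515 ± 7.53 input and 883 ± 41.5 RPF reads per kb, was the mitochondrial enzyme with the highest level in both library types.

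At the lower end, PARS2 had 20.4 ± 1.45 and TARSL2, a threonyl-tRNA synthetase paralog of TARS, 22.8 ± 0.443 input reads per kb. TARSL2 had an RPF level of 38.4 ± 8.42 per kb, the lowest of the cytosolic genes. The isoleucine enzymes had few footprints for their RNA. IARS had 725 ± 22.5 input reads per kb and only 287 ± 21.7 RPF reads per kb, and IARS2 had 327 ± 5.26 and 159.5 ± 14.3. On the log2 scale the ratio of RPF to input per kb was -1.34 ± 0.15 for IARS and -1.04 ± 0.11 for IARS2, the lowest of the 38 genes. EARS2 reached 2.30 ± 0.30, with a canonical transcript of 5196 bases against 1572 coding bases. Before length scaling the log2 ratio of EARS2 was 0.57.

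VARS2 and SARS2 need to be set apart. VARS2 had 4 to 6 input counts but 132 to 225 RPF reads, and 63% of its exon bases overlapped another annotated gene on the same strand. For SARS2 the overlap was 48.2%, with 51 to 92 input counts and 7 to 20 RPF reads. Of the 28-base windows of their transcripts, 98.6% and 77.3% occurred in the transcripts of another gene, compared with at most 8.56% for the other 36 genes. The part of this overlap in their low counts was not tested, and the input and TE values of both genes are not read as levels. VARS2 was too low for the input test.

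**Figure D1:**
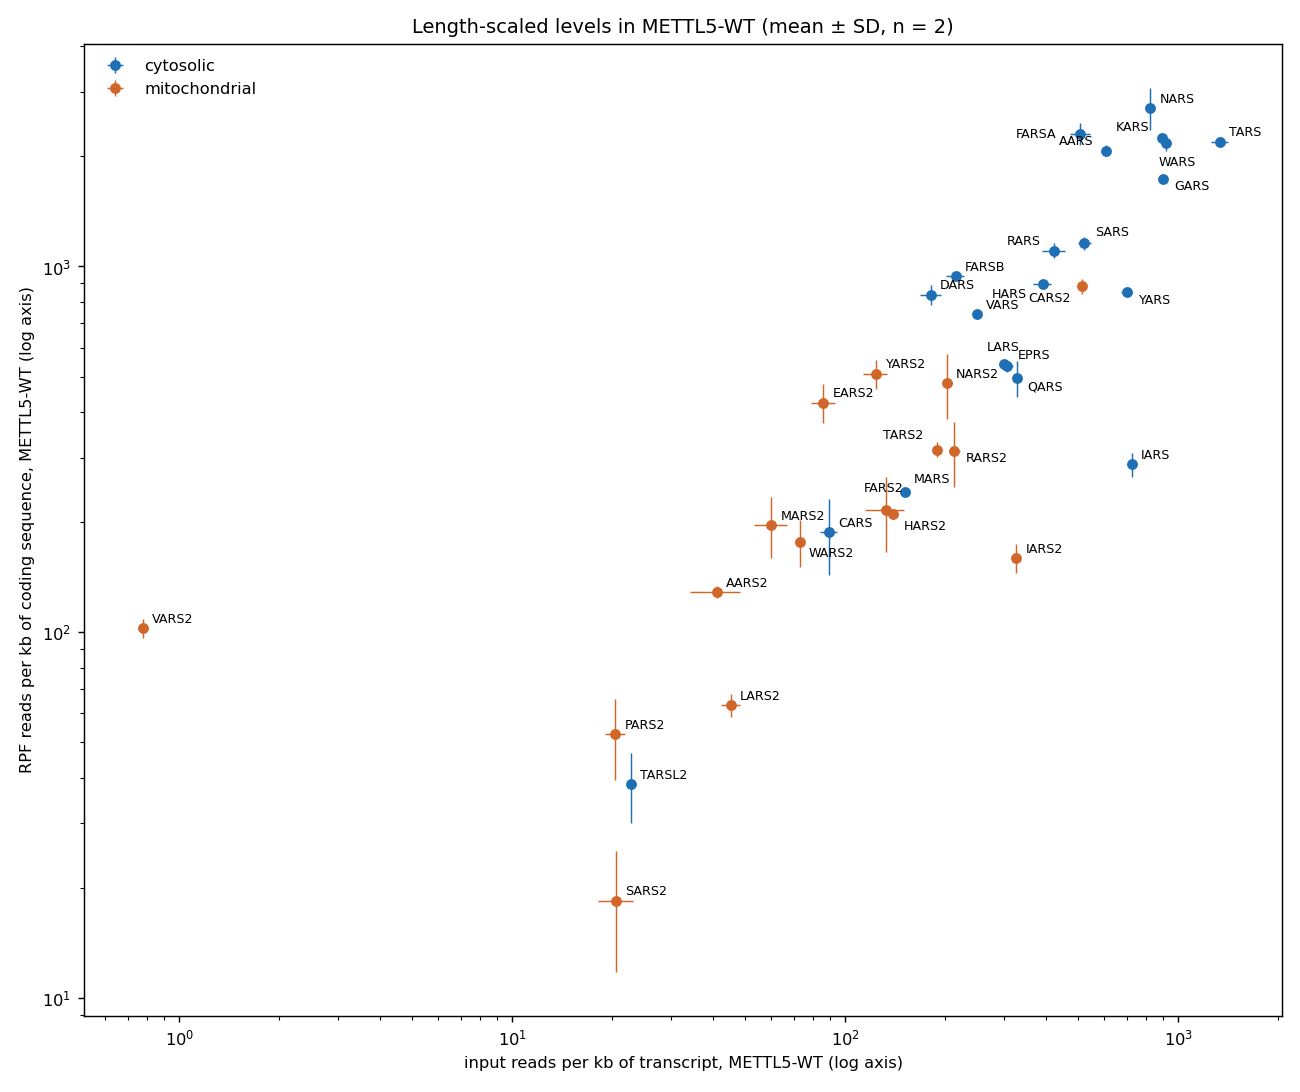
Normalized RPF reads per kb of coding sequence (vertical log axis) against normalized input reads per kb of transcript (horizontal log axis) for 37 of the genes in WT, with means and SD bars (n = 2) and colours for compartment. Most cytosolic genes lie above and to the right of the mitochondrial genes, CARS2 lies among the cytosolic genes, IARS and IARS2 lie below the main band, and VARS2 is far to the left at 0.778 input reads per kb.

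The first comparison asked whether the RNA of these enzymes differed between genotypes. In KO input RNA, 4 synthetases rose and 9 fell at an adjusted p-value under 0.05 (edgeR), of 37 tested. Over all 14054 genes tested, 22.4% were called, 11.8% higher and 10.6% lower. In bulk libraries, less RNA per cell cannot be told apart from fewer cells that carry it. Of the cytosolic enzymes 3 rose and 5 fell of 21, and of the mitochondrial enzymes 1 rose and 4 fell of 16. The median log2 fold change was -0.04 for cytosolic and -0.03 for mitochondrial enzymes, and -0.004 for all genes. The calls thus went in both directions with no shift of either group as a whole.

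AARS, the alanine enzyme, fell most. Its normalized input reads were 2105 and 2069 in WT and 1116 and 1262 in KO, a log2 fold change of -0.82 ± 0.12 (SE, adjusted p = 1.3e-05). Both KO libraries lay far below both WT libraries. EARS2, which charges mitochondrial tRNA with glutamate, had 420 and 474 normalized reads in WT and 247 and 283 in KO, a log2 fold change of -0.76 ± 0.14 (adjusted p = 0.00023). YARS2, the mitochondrial tyrosine enzyme, had 277 and 246 in WT and 166 and 146 in KO, a change of -0.76 ± 0.15 (adjusted p = 0.0008). KARS, a single gene that serves both compartments, had 1797 and 1770 in WT and 1245 and 1218 in KO, a change of -0.55 ± 0.11 (adjusted p = 0.00098). In each of these genes the genotypes did not overlap, which was also the case for 31.4% of all genes in the lower direction. HARS2, DARS, LARS, IARS2 and MARS fell by less, with log2 fold changes from -0.51 to -0.36.

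CARS, the cysteine enzyme, rose most, from 254 and 234.5 normalized input reads in WT to 330 and 352 in KO, a log2 fold change of 0.47 ± 0.14 (adjusted p = 0.0167). VARS, the valine enzyme, had 1021 and 1019.6 in WT and 1295 and 1477 in KO, a change of 0.43 ± 0.12 (adjusted p = 0.0096). QARS, the glutamine enzyme, had 787 and 816 in WT and 981 and 1089 in KO, a change of 0.36 ± 0.12 (adjusted p = 0.0313). CARS2 had 938 and 957 in WT and 1172 and 1252 in KO, a change of 0.34 ± 0.11 (adjusted p = 0.0335). KO libraries lay above WT libraries for all 4 genes, as for 31.9% of all genes. With a WT library left out, the spread within a genotype came from the KO libraries alone. The changes of KARS and CARS were then -0.53 and 0.53 without WT replicate 1, and -0.56 and 0.42 without WT replicate 2. Neither gene was called in either fit, and most other synthetase input calls were lost as well, whereas AARS and EARS2 stayed called. No synthetase input call was lost without a KO library. Such fits leave 1 library in a genotype, and the reason for the losses was not tested.

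HARS2 was called in input and HARS was not, and the difference between their changes was not tested. HARS and HARS2 lie next to each other on chromosome 5 on opposite strands, HARS from 140673035 to 140691537 and HARS2 from 140691430 to 140699305 (hg38). HARS input reads were 795 and 729 in WT and 791.5 and 824 in KO, a log2 fold change of 0.07 ± 0.12 that was not called. HARS2 had 340 and 347 in WT and 257 and 231 in KO, and it fell by 0.51 ± 0.14 on the log2 scale (adjusted p = 0.0099). The change of HARS2 was -0.52 without WT replicate 1 and -0.49 without WT replicate 2, and HARS2 was called in neither fit.

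The input changes went with those of chromosomal neighbours. For each synthetase the median log2 fold change of up to 20 tested genes on each side was taken. It was -0.39 for AARS, -0.36 for EARS2 and -0.53 for KARS, which all lie on chromosome 16, and 0.53 for CARS on chromosome 11. Over 14051 such windows the 5th percentile was -0.41 and the 95th 0.25. Around KARS 87.5% and around AARS 85% of the neighbours were lower in KO. YARS2 and MARS on chromosome 12 had neighbour medians of -0.23 and -0.27. HARS2, DARS and LARS, in contrast, fell among neighbours with medians of 0.12, 0.03 and 0.09. Across 37 synthetases the gene's own change and the neighbour median had a Pearson r of 0.70. This is a description over genes that share the same 4 libraries, and the part of the region in each change was not tested.

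**Figure D2:**
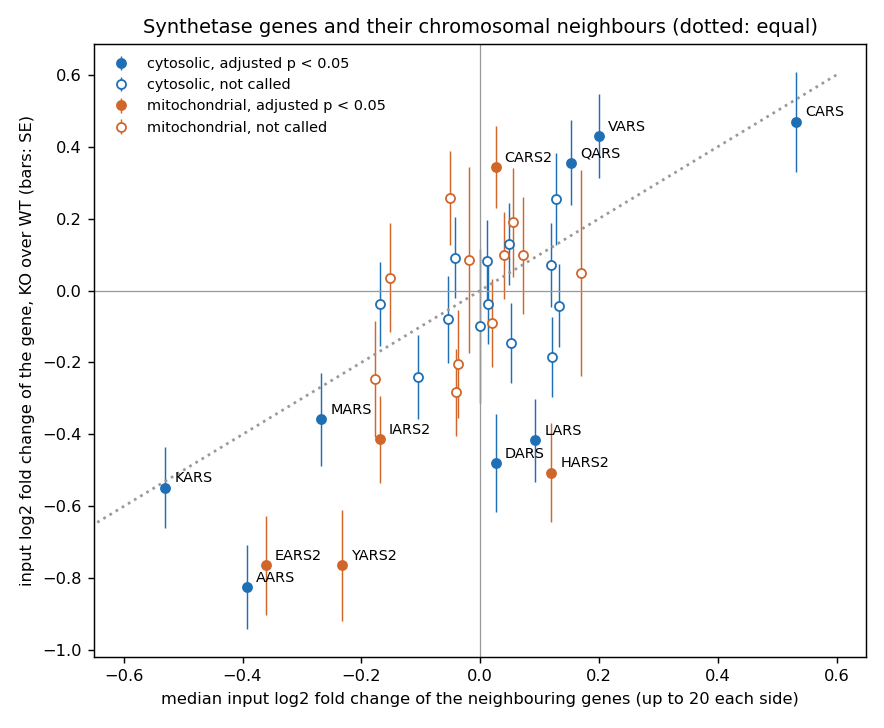
Input log2 fold change of 37 synthetase genes with SE bars (vertical axis) against the median input log2 fold change of up to 20 genes on each side (horizontal axis), filled where the gene was called, with a dotted line of equality. KARS, AARS, EARS2 and CARS stand at the ends of the horizontal axis, at -0.53, -0.39, -0.36 and 0.53, whereas DARS, LARS and HARS2 fell beside neighbours near or above 0.

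RPF reads, which count footprints on the message and so combine RNA level and ribosome load, gave a different set of calls. Of the 38 enzymes 6 rose and 4 fell in KO (limma), against 24.4% of 11240 genes called, 13.8% higher and 10.7% lower. The risers were YARS, HARS, EPRS, FARSB and SARS in the cytosol and CARS2 in mitochondria. The fallers were AARS and MARS in the cytosol and EARS2 and YARS2 in mitochondria. With edgeR on the recovered reads, where 27.2% of genes were called, SARS was not called (adjusted p = 0.051) while MARS2 (adjusted p = 0.0406) and TARS2 (adjusted p = 0.0392) were, both lower. The median RPF log2 fold change was 0.15 for cytosolic and -0.33 for mitochondrial enzymes, against 0.02 for all genes. Without VARS2 and SARS2 the mitochondrial median was -0.23. EPRS, FARSB and SARS were not called once a GC trend was removed, nor under quantile normalization, which also lost CARS2 and gave a cytosolic median of 0.03.

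YARS, the cytosolic tyrosine enzyme, rose most in RPF. Its normalized RPF reads were 1366 and 1344 in WT and 2197 and 2279 in KO, a log2 fold change of 0.72 ± 0.10 (adjusted p = 5.9e-05). HARS had 1366 and 1380 in WT and 1815 and 1763 in KO, a change of 0.38 ± 0.10 (adjusted p = 0.01). EPRS, which joins glutamate and proline activities in a single protein, had 2492 and 2364 in WT and 3245 and 2996 in KO, a change of 0.36 ± 0.09 (adjusted p = 0.0103). For all 3 genes both KO libraries lay above both WT libraries, as for 32.4% of all genes. CARS2 had 1447 and 1546 in WT and 1744 and 2110 in KO, a change of 0.36 ± 0.11 (adjusted p = 0.0256), close to its change in input.

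EARS2 fell most in RPF, from 725 and 610 normalized reads in WT to 338 and 345 in KO, a log2 fold change of -0.96 ± 0.15 (adjusted p = 0.000186). YARS2 had 682 and 776 in WT and 470.3 and 515 in KO, a change of -0.56 ± 0.13 (adjusted p = 0.006). MARS, the methionine enzyme of the complex, had 656 and 652 in WT and 467 and 483 in KO, a change of -0.46 ± 0.13 (adjusted p = 0.0175). AARS had 6179 and 5880.1 in WT and 4708 and 4589.6 in KO, a change of -0.37 ± 0.09 (adjusted p = 0.0055). All 4 genes were also called lower in input. Their KO and WT RPF libraries did not overlap, which was also the case for 29.0% of all genes in the lower direction.

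Over the groups, KO RPF values lay above both WT values in 12 and below in 2 of the 21 cytosolic enzymes, and above in 4 and below in 9 of the 17 mitochondrial enzymes. Among all genes 32.4% lay above and 29.0% below. Leaving out KO replicate 1 reduced the number of synthetases called in RPF from 10 to 4 (AARS, CARS2, EARS2 and YARS), and leaving out KO replicate 2 to 5 (EARS2, EPRS, FARSB, YARS and YARS2). Without WT replicate 1, SARS and CARS2 were not called (adjusted p = 0.07 and 0.0504). Without KO replicate 1 the cytosolic median was 0.09.

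**Figure D3:**
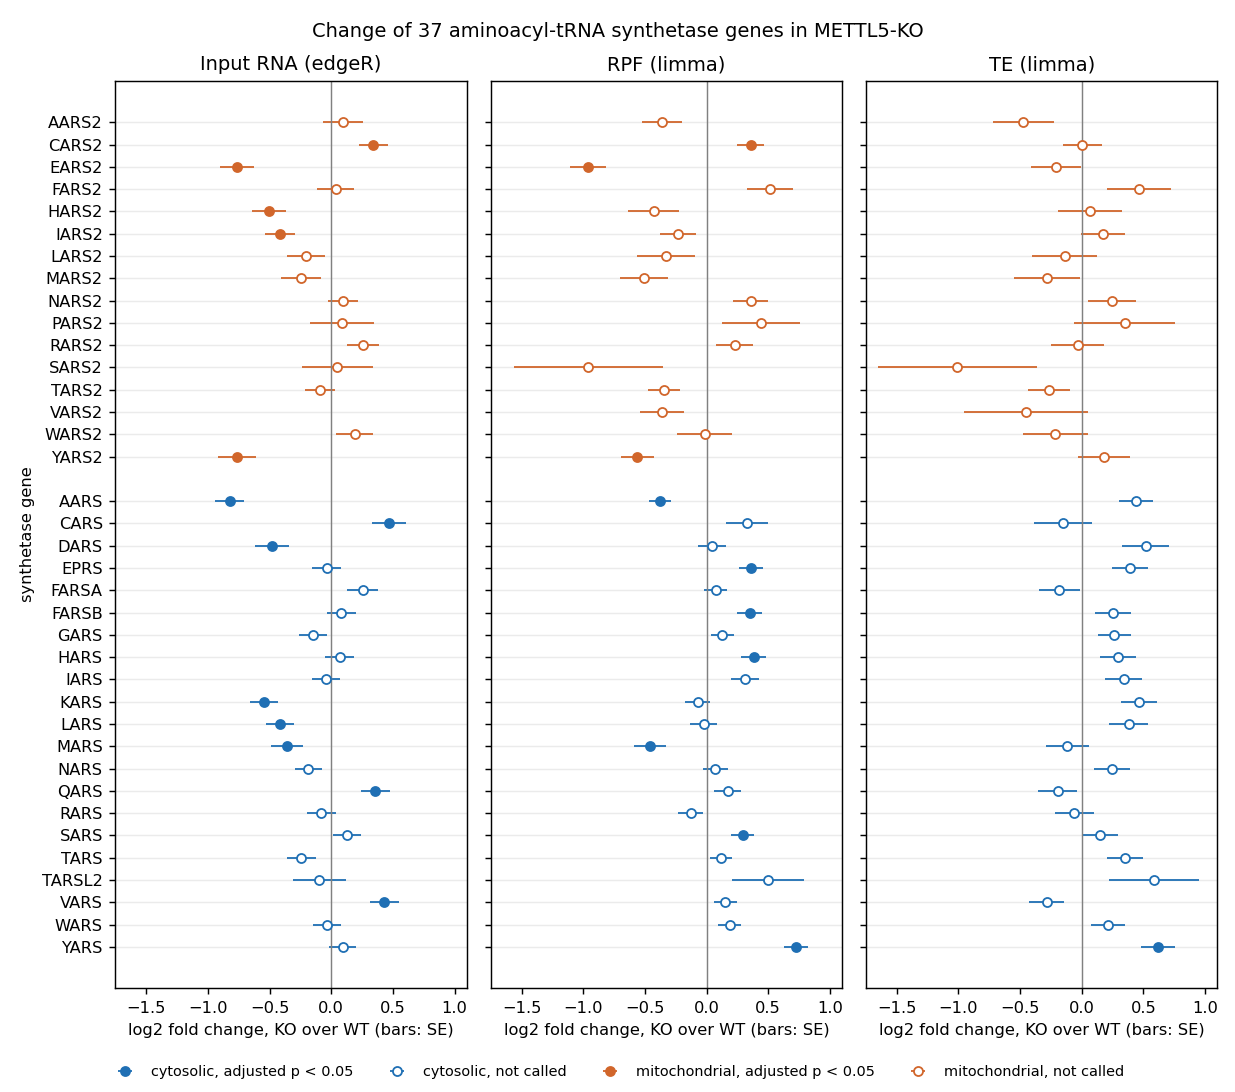
Log2 fold change, KO over WT, with SE bars for 37 of the genes in input RNA (edgeR), RPF and TE (limma), mitochondrial genes above and cytosolic genes below, filled where the adjusted p-value was under 0.05. Input calls lie on both sides of 0 in both groups, RPF calls of cytosolic genes are mostly to the right, and YARS at 0.62 is the one filled point in the TE panel.

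Translation efficiency (TE) is the ratio of RPF to input, and its change was tested as the interaction of genotype and library type. Of the 38 enzymes 1 rose in TE, 0 fell and 37 were not called (limma), where 4.79% of all genes were called, 2.7% higher and 2.08% lower, and edgeR called the same gene with 6.95% of all genes called. At an unadjusted p-value under 0.05 there were 8 of 38, close to the 22.6% of all genes at that level (12.4% higher). These 8 were all cytosolic and all higher, namely YARS, AARS, KARS, DARS, EPRS, IARS, LARS and TARS. The gene called was YARS. Its log2 ratio of RPF to input was -0.37 and -0.31 in the WT lysates and 0.22 and 0.35 in the KO lysates, a change of 0.62 ± 0.14 (limma adjusted p = 0.0171, edgeR adjusted p = 0.0161). Its normalized input reads were 1760 and 1665 in WT and 1892 and 1792 in KO, so the genotypes differed in footprints and not detectably in RNA. YARS was no longer called when any of the 4 lysates was left out, with changes of 0.55 to 0.68 and adjusted p from 0.052 to 0.159.

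For AARS and KARS the ratio also lay higher in both KO lysates, as for 28.2% of all genes, without reaching the threshold. The log2 ratio of AARS was 1.55 and 1.51 in WT and 2.08 and 1.86 in KO, a change of 0.44 ± 0.14 (adjusted p = 0.074). That of KARS was 1.19 and 1.16 in WT and 1.49 and 1.78 in KO, a change of 0.46 ± 0.15 (adjusted p = 0.075). For KARS the RPF reads were 4091 and 3955 in WT and 3496 and 4186 in KO, which overlapped, while its RNA was lower.

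The median TE log2 fold change was 0.26 over the 21 cytosolic and -0.03 over the 17 mitochondrial enzymes, against 0.02 for all genes. KO ratios lay above both WT ratios in 15 of the 21 cytosolic and 3 of the 17 mitochondrial enzymes, and this held for 28.2% of all genes. They lay below in 3 cytosolic and 4 mitochondrial enzymes, and in 25.0% of all genes. Without VARS2 and SARS2, 2 mitochondrial enzymes lay below and the mitochondrial median was 0.004. Pairs of a cytosolic and a mitochondrial enzyme for the same amino acid were formed, with EPRS and FARS2 each in 2 pairs. Without VARS2 and SARS2, the cytosolic TE change was the higher in 11 of 16 pairs, compared with 8 of 16 for RPF and 7 of 16 for input. With them, it was 13 of 18 for TE. The widest such gaps in RPF were those of EPRS with EARS2 (0.36 and -0.96) and YARS with YARS2 (0.72 and -0.56). GC content moved with the TE change. Across 36 synthetases, without VARS2 and SARS2, coding GC content and TE change had a Pearson r of -0.60, and the median coding GC content was 48% in cytosolic and 52.8% in mitochondrial enzymes. A GC trend fitted over all genes was then removed, a step that by itself reduces such a correlation. Afterwards r was -0.05, the cytosolic median was 0.13 and the mitochondrial median -0.04. YARS, at 50.1% GC, kept a change of 0.54 (adjusted p = 0.0225).

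**Figure D4:**
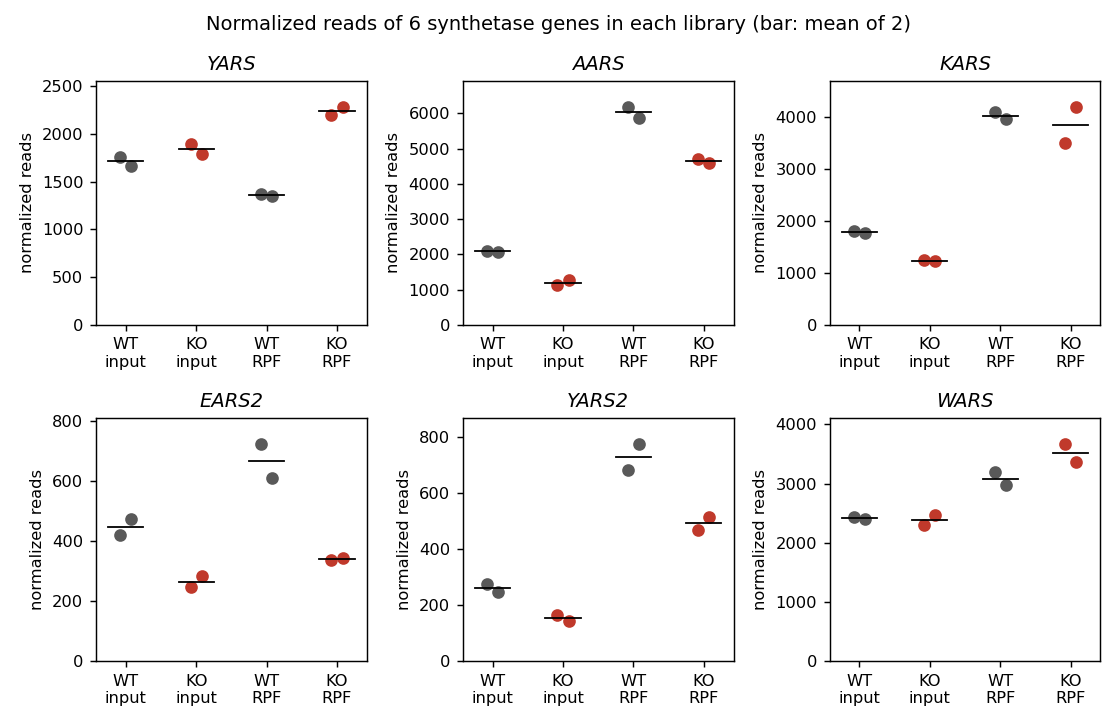
Normalized reads of YARS, AARS, KARS, EARS2, YARS2 and WARS in each of the 8 libraries (points) with the mean of each pair (bars), on linear axes from 0. YARS rose in RPF from 1366 and 1344 to 2197 and 2279 with similar input, AARS, EARS2 and YARS2 were lower in both library types, KARS was lower in input alone, and WARS was similar in input.

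The multi-synthetase complex was examined as a group. Of its 8 synthetases (EPRS, IARS, LARS, MARS, QARS, RARS, KARS and DARS), QARS rose in input and LARS, MARS, KARS and DARS fell, where 22.4% of all genes were called. EPRS rose and MARS fell in RPF, and none was called in TE by limma or edgeR, where 5 had an unadjusted p-value under 0.05, as did 22.6% of all genes. The median log2 fold change was -0.22 in input, 0.01 in RPF and 0.36 in TE, and the TE median was 0.13 after the GC trend was removed. The 13 other cytosolic enzymes had medians of 0.07 in input, 0.19 in RPF and 0.25 in TE.

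The scaffold proteins of the complex had lower mean input values in KO, and differences among them were not tested. AIMP1 had 372 and 333 normalized input reads in WT and 285 and 252 in KO, and it fell by 0.41 ± 0.14 on the log2 scale (adjusted p = 0.0367). Its RPF reads were 801 and 846 in WT and 1015 and 1005 in KO, and its TE rose by 0.69 ± 0.18 (limma adjusted p = 0.0374, edgeR adjusted p = 0.0256). With the GC trend removed, the TE change of AIMP1 was 0.43 and was not called (adjusted p = 0.139). Nor was it called with any lysate left out (adjusted p from 0.0733 to 0.234), and its input call was lost without either WT library (adjusted p = 0.467 and 0.176) or KO replicate 2 (adjusted p = 0.062). That input call was also lost in DESeq2 (adjusted p = 0.114), without the count filter (adjusted p = 0.088) and in limma with the GC trend removed (adjusted p = 0.053). AIMP2 had 1206 and 1337 input reads in WT and 942 and 1064 in KO, a log2 fold change of -0.35 ± 0.12 (adjusted p = 0.0331, and 0.254 and 0.509 without WT replicate 1 and 2, and 0.065 without the count filter), and a TE change of 0.08 ± 0.17 that was not called. EEF1E1 had 449 and 386 input reads in WT and 429.8 and 313 in KO, and its values overlapped. Its input change of -0.19 ± 0.15 was called only without KO replicate 1 (-0.42, adjusted p = 0.0034), among the settings tried.

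Among 13 genes of tRNA charging outside the synthetases, 0 rose and 3 fell in input by edgeR, a share near the 22.4% of all genes called. At an unadjusted p-value under 0.05 there were 5, against 34.2% of all genes. The third faller beside AIMP1 and AIMP2 was TRNT1, which adds the CCA end to tRNA, at -0.58 ± 0.14 (adjusted p = 0.0042, and 0.108 and 0.073 without WT replicate 1 and 2). In TE 1 of 12 tested, AIMP1, was called by limma, where 4.79% of all genes were called. EdgeR called 2 and added TRNT1 (adjusted p = 0.0494), where 6.95% of all genes were called. In RPF 1 of 12 was called by limma, SEPSECS, which makes selenocysteine on its tRNA, against 24.4% of all genes. EdgeR, which called 27.2% of all genes in RPF, added AIMP2, lower (adjusted p = 0.0444). SEPSECS rose from 33 and 34 reads (78.4 and 68.2 normalized) in WT to 139 and 105 reads (168 and 117 normalized) in KO, a log2 fold change of 0.93 ± 0.30 (adjusted p = 0.033). It was 0.67 without KO replicate 1 (adjusted p = 0.425) and 1.19 without KO replicate 2 (adjusted p = 0.069). QRSL1, GATB and GATC, the subunits that make glutaminyl-tRNA in mitochondria, had RPF changes of -0.49, 0.27 and -0.21 and were not called.

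GARS and KARS encode both the cytosolic and the mitochondrial enzyme. GARS, the glycine enzyme, had 2216 and 2169.98 normalized input reads in WT and 2002 and 1998 in KO, a log2 fold change of -0.15 ± 0.11 that was not called (adjusted p = 0.383). Its RPF reads were 3915 and 3792 in WT and 4407 and 4025 in KO, a change of 0.13 ± 0.09 (adjusted p = 0.34). QARS RPF reads were 1245 and 1059 in WT and 1334 and 1252 in KO, with a change of 0.17 ± 0.11 that was not called although its RNA rose. TARSL2 had 80.3 and 78.2 input reads in WT and 77.8 and 71.8 in KO. Its RPF reads were 107 and 78.2 in WT and 115 and 147 in KO, a log2 fold change of 0.50 ± 0.29 that was not called. TARS, its abundant paralog, had an RPF change of 0.12 ± 0.09.

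WARS was compared with other interferon-stimulated genes. Its normalized input reads were 2441 and 2407 in WT and 2294 and 2475 in KO, a log2 fold change of -0.04 ± 0.11 (adjusted p = 0.86), and the genotypes overlapped. Its RPF reads were 3191 and 2980 in WT and 3672 and 3366 in KO, a change of 0.19 ± 0.09 (adjusted p = 0.16). Its TE change was 0.21 ± 0.14 (adjusted p = 0.374). Of 16 interferon-stimulated genes, however, 15 rose in KO input, all but MX1, and all 14 tested in RPF rose, with median log2 fold changes of 2.05 and 2.06, where 11.8% and 13.8% of all genes rose. ISG15, a ubiquitin-like protein, rose by 1.57 ± 0.12 in input. GBP1, a guanylate-binding protein induced by interferon, had 6 and 1 input counts in WT and 359 and 501 in KO. In input WARS thus stayed near its WT level, while the log2 fold changes of the 16 genes ranged from 0.34 (MX1, not called) to 7.59 (IFI44L). Both ends rest on few counts. MX1 had 9 and 16 input counts in WT and 16 and 25 in KO, and IFI44L had 3 and 4 in WT. In RPF both KO values of WARS lay above both WT values, as for 32.4% of all genes. WARS2, its mitochondrial counterpart, had 206 and 202 input reads in WT and 254 and 215 in KO, and 171 and 211 RPF reads in WT and 174 and 203 in KO, with no call in either.

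The 12 cytosolic synthetases known as ATF4 targets (AARS, CARS, EPRS, GARS, IARS, LARS, MARS, NARS, SARS, TARS, WARS and YARS) were divided. In input CARS rose and AARS, LARS and MARS fell (22.4% of all genes were called), and the median log2 fold change was -0.09. In RPF EPRS, SARS and YARS rose and AARS and MARS fell (24.4% of all genes), and the median was 0.16. Of the 6 synthetases whose promoter runs are printed above, AARS and MARS fell and CARS rose in input, and IARS, NARS and TARS were not called. ATF4 itself had 1569 and 1825 normalized input reads in WT and 1443 and 1959 in KO. Its RPF reads were 285 and 331 in WT and 170.04 and 185 in KO, a log2 fold change of -0.79 ± 0.20 (adjusted p = 0.008), and its TE fell by 0.78 ± 0.21 (adjusted p = 0.0418). The RPF call of ATF4 was lost without KO replicate 1 (-0.73, adjusted p = 0.077), and its TE call without any of the 4 lysates (adjusted p from 0.06 to 0.255). Of 15 ATF4-linked genes outside the synthetases (ATF4 included), 3 rose and 1 fell of 14 tested in input, near the 22.4% of all genes called, and 5 rose and 2 fell in RPF, where 24.4% of all genes were called. SLC7A11, the cystine transporter, rose most, by 1.49 ± 0.12 in input and 1.76 ± 0.12 in RPF. PSAT1, of serine synthesis, did not differ detectably in input (-0.08 ± 0.11) and rose in RPF by 0.65 ± 0.09 (adjusted p = 0.0001). In TE 1 of the 15 genes rose and 1, ATF4, fell (limma), where 4.79% of all genes were called. The riser was PSAT1, by 0.72 ± 0.14 (limma adjusted p = 0.0096). With a lysate left out its change was 0.70 to 0.73, and it stayed called only without KO replicate 1.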

How the data were processed

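The authors trimmed the input reads (BBDuk), mapped them to hg38 by STAR 2.7.3a and deposited counts per gene from featureCounts, over exons by strand. Footprints were mapped by the authors through RiboToolkit. The signal values deposited by the authors, which they named RPKM, proved to be reads divided by 1 size factor per library (100% whole within 0.01 read), and not the unit that had been assumed. The deposited exon length was not used for levels. The translation table lists no gene below 1 read in any library. Its columns of the authors' TE fold change and p-values were not used. From the deposited counts, 3 broken lines were left out.

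Input was tested by quasi-likelihood in edgeR 4.0.16 with TMM and filterByExpr. RPF (4 libraries) and TE (8 libraries) were tested by limma 3.58.1 with an eBayes trend, on log2(value + 1), which understates changes of low genes, for genes with a mean of at least 1, and by edgeR on the recovered reads. Adjusted p-values are Benjamini-Hochberg over all genes, two-sided, called under 0.05. DESeq2 1.42.0, R 4.3.3 and Python 3.11.15 were also used, and models were tested on simulated data. GC trends (GENCODE annotation) were removed by local regression of span 0.3. By protocol, an input and an RPF library with equal genotype and number share a lysate. Replicate numbers do not pair genotypes.

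Named genes were WARS, WARS2, KARS, GARS, QARS, TARSL2, AIMP1, AIMP2, EEF1E1, METTL5, the extremes of level, and the 4 largest rises and falls called per comparison. HARS and HARS2 in input, the TE of AARS, the levels of GARS, WARS, KARS, FARSA, IARS, IARS2, EARS2, CARS2, PARS2 and TARSL2, and the ATF4, interferon and charging genes with values were chosen after their values were seen. Members and lists were chosen with earlier results of these data known. Some genes are counted in their groups but not reported here by name.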

Additional observations from a re-analysis of the deposited data

How the results depend on the processing

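Input calls lost MARS in edgeR with DESeq2 size factors, without a count filter and in limma, and lost CARS and MARS in DESeq2. Leaving out 1 library gave 2 to 15 synthetases called in input, 4 to 15 in RPF and 0 in TE. Over all genes it gave 1220 to 5474 calls in input, 1467 to 3211 in RPF and 4 to 266 in TE (lowest without WT replicate 1, KO replicate 1 and KO lysate 2, and 5474 without KO replicate 1). The fits then have fewer samples, and for the rest the cause was not tested. Limma without the variance trend called 0 synthetases in RPF and 0 in TE (303 and 1 genes), and quantile normalization 6 in RPF. In TE, DESeq2 and the length correction each called 3 synthetases, DESeq2 called 837 genes and the GC correction 299.

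Blocking on the lysate kept YARS as the only synthetase called. Lysate block with GC correction called 2 (AARS added), with a cytosolic median of 0.13, and edgeR with a replicate block on the lysate, chosen after seeing the data, called 877 genes. The replicate-number block kept all input and RPF calls, and the same-numbered replicate differences correlated at 0.039 in input and -0.0021 in RPF.

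Cytosolic medians moved in RPF to 0.0266 (quantile), in TE to 0.147 (quantile) and 0.126 (GC), and in input to 0.0427 (GC). Leaving out 1 library gave cytosolic medians of -0.134 to 0.0105 in input, 0.0904 to 0.194 in RPF and 0.203 to 0.362 in TE, and mitochondrial input medians of -0.117 to -0.0278. Mitochondrial medians moved in RPF to -0.243 (length) and in input to 0.0401 (DESeq2), 0.0639 (no filter), 0.0508 (limma) and -0.11 (GC). Signs near 0 reversed for AIMP2 TE (-0.0484, quantile), NARS RPF (-0.0529, quantile, and -0.0402, GC) and WARS2 RPF (0.000401, median centring, and 0.00597, quantile). Leaving out 1 library gave, for changes not called with all libraries, -0.157 to 0.324 for AIMP2 TE, -0.434 to 0.27 for EEF1E1 TE, -0.416 (called, without KO replicate 1) to 0.0284 for EEF1E1 input, -0.202 to 0.0575 for KARS RPF, -0.0641 to 0.207 for NARS RPF, -0.0925 to 0.0309 for WARS input, -0.165 to 0.134 for WARS2 RPF and -0.447 to 0.0161 for WARS2 TE. Each group had 2 replicates.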
